A study of Mus musculus with 6 samples.

Results

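Extracellular ATP and adenosine signalling was followed through 10 genes in RNA sequencing of whole mouse lung. They are the adenosine receptor genes Adora1, Adora2a, Adora2b and Adora3, the enzyme genes Entpd1, Nt5e and Ada, and the ATP receptor genes P2rx4, P2rx7 and P2ry2. They were chosen by gene symbol, with earlier results of these data known. All 10 were found among the 23183 genes of the tables, each with a value in all 6 libraries. The LPS group held 3 libraries from lungs of mice on a C57BL/6 background given lipopolysaccharide (LPS), the inflammatory cell wall component of Gram-negative bacteria, by instillation into the trachea. The saline group held 3 libraries from lungs of wild-type mice on the same background given saline by the same route. The titles call all 6 libraries wild type, but the genotype field names an LCN2-/- animal for LPS 1 and LPS 2 and LCN4-/- for LPS 3. Were the genotype field correct, effects of treatment and of genotype cannot be told apart here. The sources used here give no dose, time after instillation or age. They do not say whether each library is a separate animal, so the p-values rest on the spread between libraries, which may be technical.

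ATP leaves stressed, activated or dying cells and acts as an alarm signal on P2X receptors, which are ion channels, and P2Y receptors, which couple to G proteins. CD39, encoded by Entpd1, strips ATP and ADP down to AMP. CD73, encoded by Nt5e, turns AMP into adenosine, and adenosine deaminase, encoded by Ada, turns adenosine into inosine. Adenosine acts on G protein-coupled receptors, of which the A2A and A2B types raise cyclic AMP and the A1 and A3 types lower it. In the lung the adenosine arm of this pathway is known for restraining neutrophil entry and vascular leak during acute injury.

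Each value is the deposited log2(value + 1), and each difference is the LPS mean minus the saline mean of such values. Depth is unknown, since the tables hold no counts. Lcn2, the gene named in the genotype field, was 13.60, 13.29 and 13.82 in LPS 1, 2 and 3, against 8.20, 11.28 and 10.11 in saline 1, 2 and 3, so its RNA was high in the libraries labelled LCN2-/-. The tissue label was checked with lung markers. The alveolar type 1 cell gene Ager ranged from 9.93 to 10.26 in LPS, against 9.86 to 10.34 in saline. The club cell gene Scgb1a1 ranged from 17.19 to 17.32 in LPS, against 15.90 to 16.58 in saline. The table of LPS 3 ends early and holds 18699 of the 23183 genes. None of the genes it lacks is among the 10.

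In lungs labelled LPS, RNA of all 4 adenosine receptor genes, of Ada and of P2ry2 was higher, RNA of Entpd1 and P2rx7 was lower, and Nt5e and P2rx4 did not pass the test. A gene was called where its adjusted p was below 0.05 in limma, with Benjamini-Hochberg adjustment over all 13116 genes tested. Of the 10 genes 8 were called, 6 higher and 2 lower, whereas 50.1% of all genes tested were called, 25.7% higher and 24.3% lower. The median difference was 0.69 over the 10 genes and 0.02 over all genes tested. Of the 10 genes, 4 were called higher and at least 2-fold different, against 9.26% of all genes tested. Values of the groups did not overlap for 8 of the 10 genes, and for 63.4% of all genes tested. Because the 10 genes were chosen with earlier results known, these shares cannot show that the pathway moved more than other genes. Without LPS 2, 5 of the 10 genes were called, 4 higher and 1 lower, and 37.1% of all genes then tested. With both saline 2 and LPS 3 left out, the calls of Adora2a, Adora2b, Ada, P2ry2, Entpd1 and P2rx7 were kept. All 10 genes passed the filter on low values, which asked for 3 or more libraries with an unlogged value of at least 1. Adora3 met it through the 3 LPS libraries and saline 2, so that its 3 LPS libraries alone would have let it in.

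**Figure D1:**
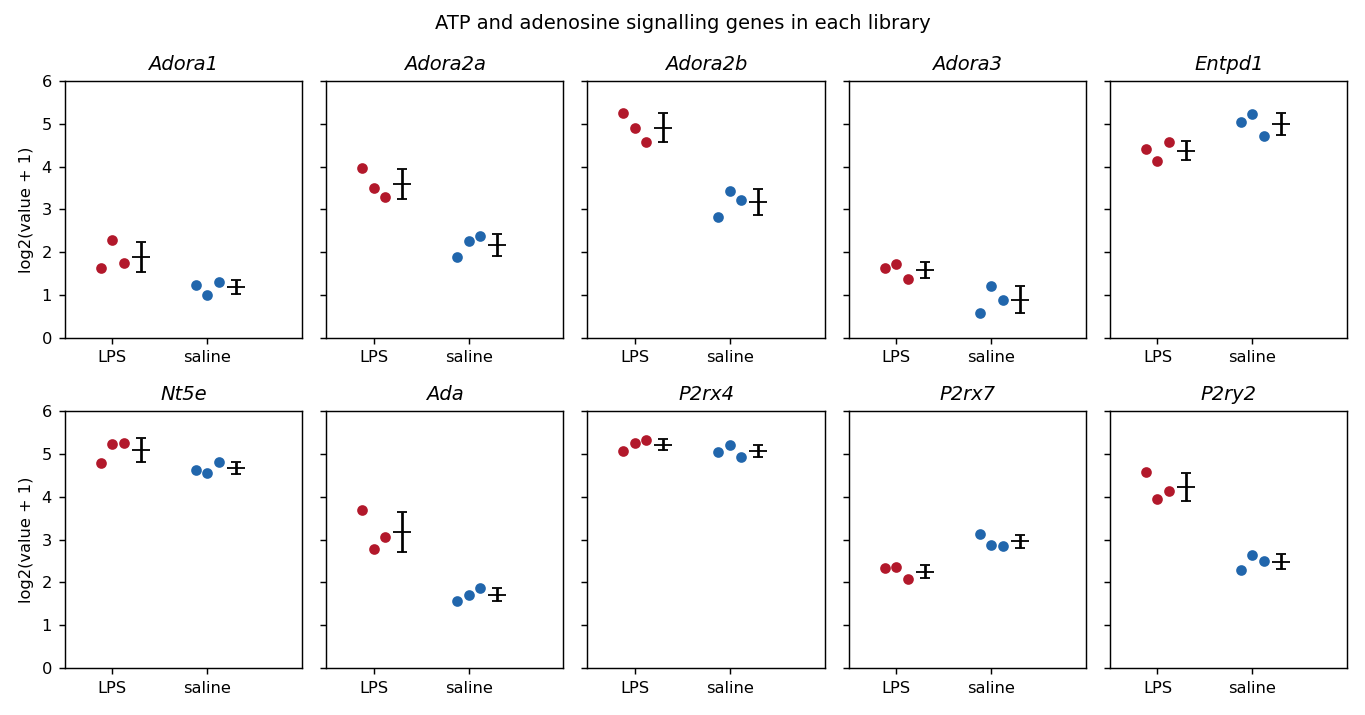
Deposited values, log2(value + 1), of the 10 genes in each library, with LPS left of saline. Coloured points are libraries in the order 1, 2, 3, and the black mark and bar beside them are the mean and SD (n = 3 per group). LPS points lie above all saline points for Adora1, Adora2a, Adora2b, Adora3, Ada and P2ry2, and below them for Entpd1 and P2rx7, and the groups overlap for Nt5e and P2rx4, each with LPS 2 and LPS 3 above the saline points.

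Promoter sequence is shown for Adora2b and Ada, members with large increases whose RefSeq start coincides with the 5′ end of the GENCODE M21 gene model. The windows are the 250 bases before the start, from RefSeq (GRCm38.p6, the assembly of mm10), written 5′ to 3′ on the gene's strand. Capitals mark GGGCGG on either strand, a GC box, which was looked for after the sequences were seen.
Adora2b (chr11:62248734-62248983, plus strand): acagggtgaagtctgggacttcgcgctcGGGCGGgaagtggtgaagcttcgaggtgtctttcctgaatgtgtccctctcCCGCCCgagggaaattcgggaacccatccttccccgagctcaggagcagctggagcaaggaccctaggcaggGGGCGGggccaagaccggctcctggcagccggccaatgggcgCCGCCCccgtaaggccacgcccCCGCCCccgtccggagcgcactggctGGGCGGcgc
Ada (chr2:163750240-163750489, minus strand): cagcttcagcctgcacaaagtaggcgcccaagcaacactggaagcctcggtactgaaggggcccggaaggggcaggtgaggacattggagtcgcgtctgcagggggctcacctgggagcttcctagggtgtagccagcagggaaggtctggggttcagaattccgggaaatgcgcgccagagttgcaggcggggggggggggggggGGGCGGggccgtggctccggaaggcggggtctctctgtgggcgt

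The Adora2b window held 6 copies of GGGCGG and the Ada window 1. Of the 9 members with an entry 6 held at least 1, against 32.7% of the 32851 promoter windows of this length in the table. The others of these 6 were Adora1 (3 copies), P2ry2 (2), Nt5e (4), which was not called, and P2rx7 (2), which was called lower. Other motifs were searched on both strands in the 9 of 10 members that had an entry. TGACG, the core of the cyclic AMP response element, was present in 2 of the 9 (Entpd1 and P2rx4), against 17.8% of all windows. ACGTG, the core of the hypoxia response element, was present in 1 of the 9 (Adora1), against 16.6% of all windows. The kappa B consensus was present in 0 of the 9, against 3.90% of all windows. TGACG and ACGTG can overlap by sharing ACG. These are matches of letters in short windows, and an absent match says only that these letters are not there.

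Adora2b encodes the A2B receptor, which needs more adenosine to respond than the A2A receptor does, and its increase and that of P2ry2 (1.74), apart by less than the SE of either, were the largest of the 10 genes. It lies on chromosome 11, 62248984 to 62266453 (mm10). Its values were 5.25, 4.91 and 4.57 in LPS 1, 2 and 3, against 2.83, 3.43 and 3.23 in saline 1, 2 and 3. Every LPS library was above every saline library by more than the spread within either group. The mean was 4.91 ± 0.34 in LPS and 3.16 ± 0.31 in saline (SD, n = 3 each), a difference of 1.75 (SE 0.21, 95% interval 1.27 to 2.23; limma adjusted p = 0.000344) or 3.35-fold. Of all genes tested, 3.03% had a larger increase.

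Adora2a encodes the A2A receptor, the main adenosine receptor on leukocytes that dampens their activation, and lies on chromosome 10, 75316877 to 75334784. Its values were 3.97, 3.50 and 3.30 in LPS, against 1.88, 2.27 and 2.37 in saline. The groups did not overlap. The mean was 3.59 ± 0.34 in LPS and 2.17 ± 0.26 in saline (SD, n = 3 each), a difference of 1.42 (SE 0.20, 95% interval 0.96 to 1.87; limma adjusted p = 0.000713) or 2.67-fold. Both receptor genes that couple to cyclic AMP production were therefore called higher, and LPS 1 held the highest value of each.

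The genes of the receptors that lower cyclic AMP had low values and smaller increases. Adora1, encoding the A1 receptor (chromosome 1, 134199223 to 134235431), was 1.64, 2.28 and 1.74 in LPS, against 1.24, 1.01 and 1.31 in saline. The groups did not overlap, with LPS 2 the highest, and the difference was 0.70 (SE 0.19; limma adjusted p = 0.0141). That call ended without LPS 2 (0.50, adjusted p = 0.0523) and without saline 2 and LPS 3 together (0.69, adjusted p = 0.0593). Of the exonic bases of Adora1, 20.1% are shared with Mybph on the other strand, and Mybph was at most 0.13 in every library.

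Adora3 encodes the A3 receptor, which in rodents is prominent on mast cells and eosinophils (chromosome 3, 105870858 to 105908926). It was 1.63, 1.73 and 1.37 in LPS, against 0.57, 1.21 and 0.89 in saline. The groups did not overlap, but LPS 3 and saline 2 lay close together. The difference was 0.69 (SE 0.19; limma adjusted p = 0.0152), and the call ended without LPS 2 (0.61, adjusted p = 0.0574) and without saline 1 (0.53, adjusted p = 0.0560). The value of Adora3 is uncertain, because 20.9% of its exonic bases are shared with Tmigd3 on the same strand. Tmigd3 was 2.41 and 2.20 in LPS 1 and LPS 2, against 0.59, 1.15 and 0.43 in saline, and LPS 3 has no value for it. The summed unlogged level of 6 eosinophil markers ranged from 1.6 to 2.1 in LPS, against 7.8 to 8.8 in saline, with Epx listed at 0 in every LPS library and in saline 1 and saline 3. Only 2 of the 6 passed the filter, and Siglecf did so through the saline libraries alone, so no count of calls is given. Of 9 mast cell markers 3 were tested. Hdc (0.67) was higher, Kit (-0.70) was lower and Gata2 (-0.44) did not pass, with summed levels of 78.5 to 89.2 in LPS and 75.8 to 84.3 in saline. Both calls ended without LPS 3 (0.67 and -0.48), saline 1 (0.42 and -0.53) or saline 3 (0.75 and -0.68), that of Hdc also without LPS 1 (0.58) and that of Kit without LPS 2 (-0.76). The other 6 were too low to be tested and each had a lower mean in LPS, and the sum of the 5 of them with 6 values lay at 0.811 to 1.15 in LPS, against 2.76 to 7.07 in saline. Of these, the mast cell protease gene Mcpt4 was at most 0.10 in LPS, listed at 0 in LPS 3, against 0.71 to 1.54 in saline, and Tpsb2 was listed at 0 in LPS 1 and LPS 2. Exact zeros numbered 6097 in LPS 1, 6223 in LPS 2 and 5117 in the shorter table of LPS 3, against 3869 in every saline library. Differences of eosinophil and mast cell markers at or near 0 may therefore not be differences in RNA. The part of these cell types in the Adora3 difference was not tested.

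**Figure D2:**
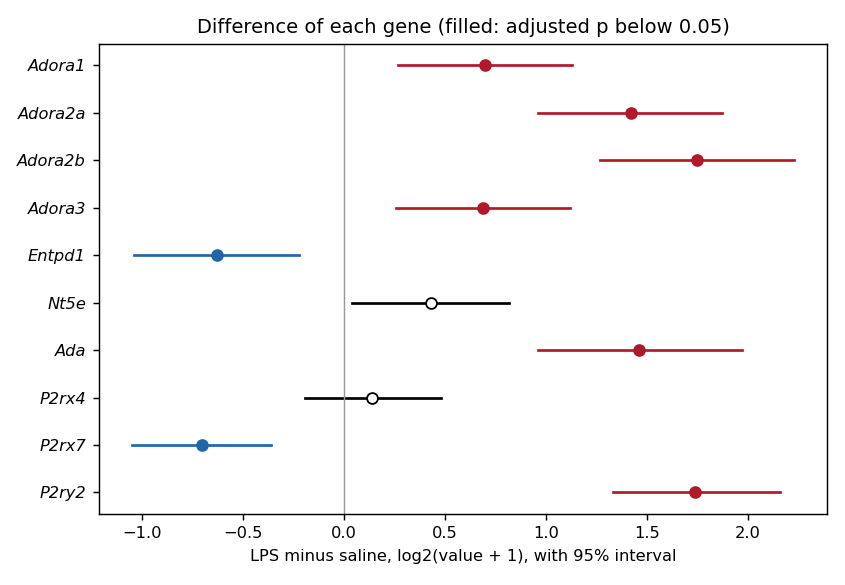
Difference of each of the 10 genes, LPS minus saline on the log2(value + 1) scale, with its 95% interval from limma. Red points are higher and blue points lower in LPS at an adjusted p below 0.05, and open black points did not pass. Adora2b and P2ry2 lie farthest right at 1.75 and 1.74, and Entpd1 and P2rx7 lie left of 0 at -0.63 and -0.70.

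The enzymes that make and remove adenosine did not move together. Entpd1, which encodes CD39 (chromosome 19, 40612366 to 40741602), was 4.40, 4.14 and 4.57 in LPS, against 5.04, 5.24 and 4.72 in saline. All LPS values were below all saline values, although LPS 3 and saline 3 lay close together. The mean was 4.37 ± 0.22 in LPS and 5.0 ± 0.26 in saline (SD, n = 3 each), and Entpd1 fell by 0.63 (SE 0.18, 95% interval -1.04 to -0.22; limma adjusted p = 0.0182). The call ended without LPS 2 (-0.51, adjusted p = 0.0771). In whole lung, fewer cells of a type and less RNA per cell cannot be told apart.

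Nt5e, which encodes CD73 (chromosome 9, 88327197 to 88372092), was 4.78, 5.24 and 5.26 in LPS, against 4.62, 4.55 and 4.82 in saline. LPS 1 fell within the saline range and the other LPS libraries lay above it. The difference of 0.43 (SE 0.17, 95% interval 0.04 to 0.82; limma adjusted p = 0.0632) did not pass, and it passed only without LPS 1 (0.59, adjusted p = 0.0288) among the libraries left out in turn.

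Ada, which encodes the enzyme that removes adenosine (chromosome 2, 163726584 to 163750239), was 3.70, 2.78 and 3.06 in LPS, against 1.57, 1.70 and 1.87 in saline. The LPS libraries varied more than the saline libraries, with LPS 1 highest, and the groups did not overlap. The mean was 3.18 ± 0.47 in LPS and 1.71 ± 0.15 in saline (SD, n = 3 each), a difference of 1.46 (SE 0.22, 95% interval 0.96 to 1.97; limma adjusted p = 0.000950) or 2.76-fold.

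The ATP receptor genes differed from each other in direction. P2ry2 encodes a receptor for ATP and UTP that acts through Gq, and in airway epithelium it drives chloride and mucus secretion (chromosome 7, 100996568 to 101012866). It was 4.59, 3.96 and 4.13 in LPS, against 2.30, 2.64 and 2.51 in saline. The groups lay far apart relative to their spread, with means of 4.23 ± 0.33 in LPS and 2.48 ± 0.17 in saline (SD, n = 3 each). The difference was 1.74 (SE 0.19, 95% interval 1.33 to 2.16; limma adjusted p = 0.000193) or 3.35-fold.

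P2rx7 encodes the ATP-gated channel that lets potassium out of the cell and engages the NLRP3 inflammasome. It was 2.34, 2.35 and 2.07 in LPS, against 3.14, 2.88 and 2.85 in saline. All LPS libraries were below all saline libraries. The mean was 2.25 ± 0.16 in LPS and 2.96 ± 0.16 in saline (SD, n = 3 each), and P2rx7 fell by 0.70 (SE 0.15, 95% interval -1.05 to -0.36; limma adjusted p = 0.00476).

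P2rx4 encodes a related ATP-gated channel found on macrophages and in alveolar type 2 cells, and is its neighbour on chromosome 5. P2rx7 spans 122643911 to 122691432 and P2rx4 spans 122707544 to 122729738, on the same strand, with 16111 bases between them. P2rx4 was 5.07, 5.25 and 5.32 in LPS, against 5.04, 5.22 and 4.94 in saline. The groups overlapped, and the difference of 0.14 (SE 0.15, 95% interval -0.19 to 0.48; limma adjusted p = 0.441) did not pass.

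Ratios of paired genes within a library are little changed by a constant scaling factor between libraries. A scaling that varies with level, such as quantile normalization, can change them, and they were not recomputed with it. They were taken as log2 of the values before the log plus 0.1, and LPS was compared with saline by an exact two-sided permutation test, in which 3 against 3 libraries cannot give a p below 0.1. Each of the 4 ratios reached that smallest p (exact p = 0.1, adjusted over the 4 ratios 0.1), so none could pass 0.05. The log2 ratio of P2rx7 to P2rx4 was -2.97, -3.14 and -3.57 in LPS, against -2.01, -2.49 and -2.24 in saline, a difference of -0.98. The log2 ratio of Nt5e to Entpd1 was 0.39, 1.14 and 0.71 in LPS, against -0.44, -0.71 and 0.11 in saline, a difference of 1.09. Within every LPS library the balance lay further toward Nt5e and away from P2rx7 than in any saline library. These 2 ratios hold the falls of Entpd1 and P2rx7 already given, and Nt5e and P2rx4 were not called. The share of other gene pairs whose ratios separate the groups was not computed. Of all single genes tested, 63.4% did not overlap.

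The log2 ratio of Ada to Nt5e was -1.14, -2.63 and -2.33 in LPS, against -3.51, -3.27 and -3.31 in saline, a difference of 1.33 that was 1.62 without LPS 2 and 0.88 without LPS 1. LPS 1 stood well above the other LPS libraries in this ratio. The log2 ratio of Adora2b to Adora2a was 1.33, 1.48 and 1.35 in LPS, against 1.16, 1.33 and 0.99 in saline. LPS 1 and saline 2 gave the same value to 2 decimals, and the difference of 0.23, or 0.14 without saline 3, was small beside the increase of either receptor gene.

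**Figure D3:**
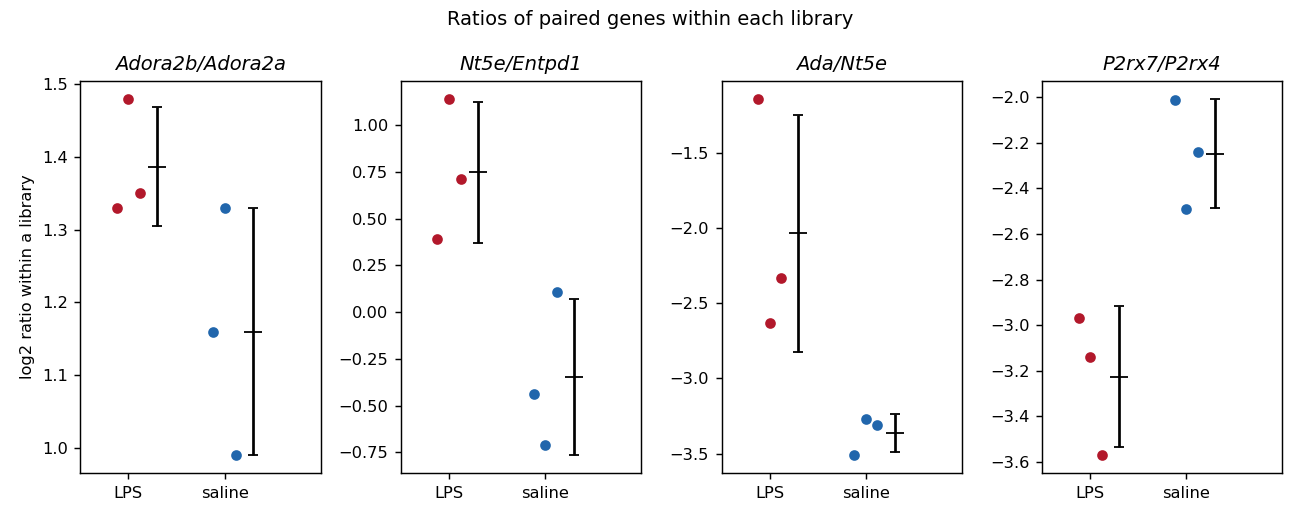
Log2 ratio of paired genes within each library, from values before the log plus 0.1, with LPS left of saline and a separate vertical axis for each ratio. Points are libraries and the black mark and bar are the mean and SD (n = 3 per group). The P2rx7 to P2rx4 ratio lies lower in LPS and the Nt5e to Entpd1 and Ada to Nt5e ratios lie higher, with no overlap between groups.

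Other genes that release or convert extracellular nucleotides moved in both directions. Of 20 genes listed, 16 were tested, 7 were higher, 2 were lower and 7 did not pass, with a median difference of 0.25. Over all genes tested 50.1% were called, 25.7% higher and 24.3% lower. The counts of this list and of those below stand beside the same shares. One of the lower genes, Enpp1, passed the filter through the saline libraries alone. Alpl, the tissue-nonspecific alkaline phosphatase that can make adenosine from AMP, rose by 1.72 (SE 0.18), and Bst1, an enzyme that cleaves NAD at the cell surface, rose by 1.59 (SE 0.21). Nme1, a nucleoside diphosphate kinase, rose by 1.60 (SE 0.31), but reads of Nme1 and its close copy Nme2 (0.10, not called) may have been split between them. Dpp4, the cell surface peptidase CD26 that in humans anchors adenosine deaminase, fell by 2.07 (SE 0.15; limma adjusted p = 6.03e-05), with values of 2.33, 2.46 and 2.67 in LPS against 4.69, 4.59 and 4.40 in saline. Entpd3, a relative of Entpd1 named after its values were seen, was 2.60, 2.27 and 2.72 in LPS, against 1.25, 0.92 and 1.10 in saline, a difference of 1.44 (SE 0.17; limma adjusted p = 0.000270). Members of the same enzyme family thus stood on opposite sides of 0, while Entpd2 was -0.05 and not called. The channel gene Panx1, through which ATP leaves cells, had a difference of 0.40 and was not called.

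Genes for adenosine uptake and its metabolism inside cells moved in both directions. Of 20 listed, 14 were tested, 5 were higher, 5 were lower and 4 did not pass, with a median difference of 0.11. The split was 4 higher and 2 lower with quantile normalization, and 2 higher and 7 lower when library totals were made equal. Pnp2 (1.64, SE 0.17) and Pnp (1.48, SE 0.24), which encode purine nucleoside phosphorylases that use the inosine made by adenosine deaminase, were higher, but they are close copies whose reads may have been split. Ampd3 (1.26, SE 0.19), which deaminates AMP, and Nt5c (1.13, SE 0.19), a nucleotidase, were also higher. Adk, the kinase that returns adenosine to AMP, and Slc29a1, the equilibrative transporter ENT1, were named after their values were seen. Adk was 5.07, 5.03 and 5.47 in LPS, against 6.25, 6.32 and 5.85 in saline, and fell by 0.95 (SE 0.19; limma adjusted p = 0.00323). Slc29a1 was 3.88 and 3.96 in LPS 1 and LPS 2, with no value in LPS 3, against 5.52, 4.89 and 5.05 in saline, and fell by 1.24 (SE 0.21; limma adjusted p = 0.00212).

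Among the other P2Y receptor genes, 5 of 6 were tested, 3 were higher, 0 were lower and 2 did not pass. P2ry13 (1.14, SE 0.35) and P2ry12 (0.83, SE 0.15), both receptors for ADP, and P2ry6 (0.94, SE 0.25), a receptor for UDP, were higher. P2ry1 (-0.14) and P2ry14 (-0.30) were not called, and P2ry4 was listed at 0 in all 6 libraries. Among the other P2X genes, 3 of 5 were tested, and P2rx6 fell (-0.47, SE 0.16; limma adjusted p = 0.0364). P2rx6 no longer passed when any library but saline 2 was left out, nor P2ry13 when LPS 1 (0.83), LPS 3 (1.11), saline 1 (0.85) or saline 3 (1.11) was. P2rx1 (-0.13) and P2rx5 (0.27) did not pass. With quantile normalization P2rx6 (-0.11) did not pass, and P2rx5 (0.61, limma adjusted p = 0.00804) was called higher. With all values kept, no filter applied, 1 of these P2Y genes and 0 of these P2X genes were called.

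**Figure D4:**
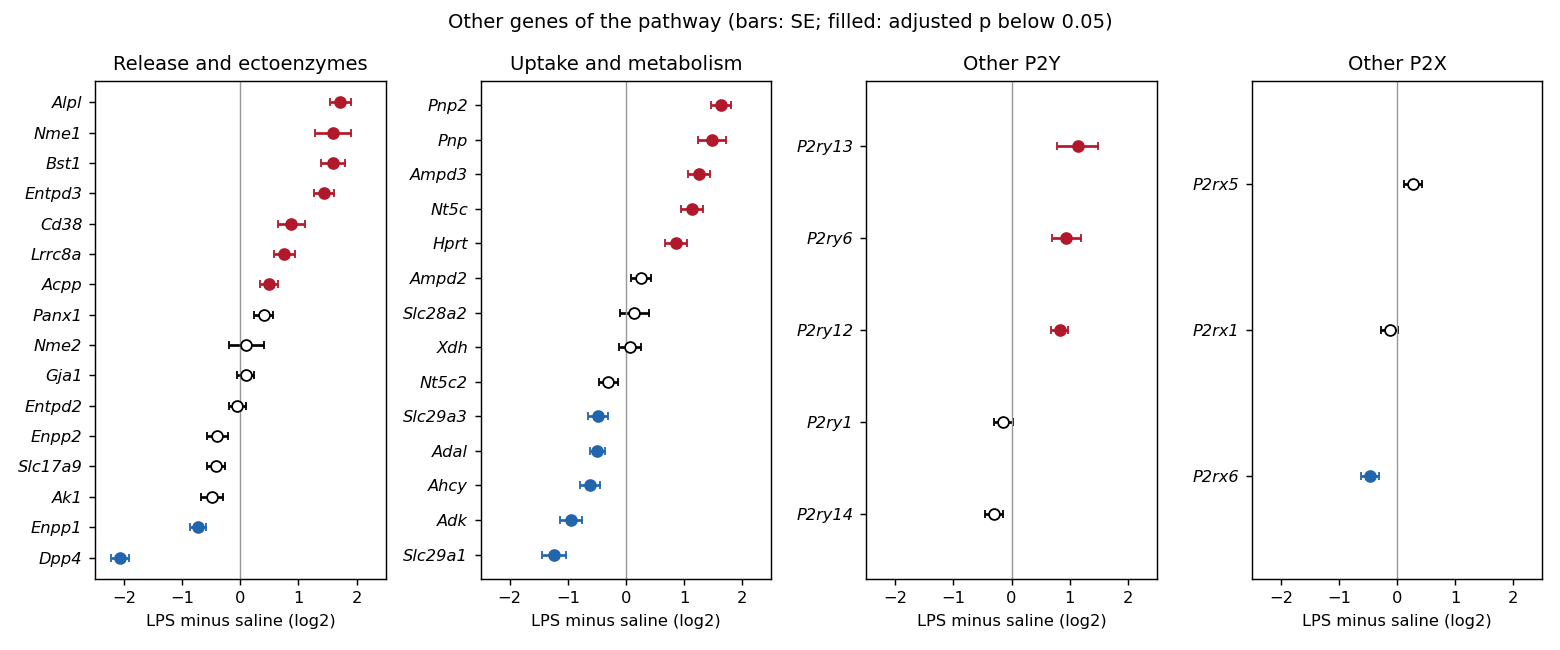
Difference, LPS minus saline on the log2(value + 1) scale, with SE, of the other pathway genes that were tested. Filled red points are higher and filled blue points lower in LPS at an adjusted p below 0.05, and open points did not pass. Alpl at 1.72 and Dpp4 at -2.07 mark the ends of the first list.

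Downstream of the cyclic AMP receptors, 21 genes were tested, 5 were higher, 8 were lower and 8 did not pass, with a median of -0.20. Nr4a1, a nuclear receptor gene that responds to the cyclic AMP-dependent factor CREB and to other stimuli, was 6.55, 5.64 and 5.45 in LPS, against 3.10, 3.74 and 4.75 in saline, a difference of 2.02 (SE 0.41; limma adjusted p = 0.00337). The adenylyl cyclase genes Adcy9 (-1.10) and Adcy6 (-1.04), which make cyclic AMP, fell. Another cyclase gene, Adcy3 (0.81, 0.59 and 0.94 in LPS, against 2.15, 1.75 and 2.11 in saline), passed the filter through the saline libraries alone, and Nr4a3 did so through the LPS libraries alone, which leaves 4 higher and 7 lower without them. Without LPS 1, LPS 2 or saline 1, 8 of these 21 genes were called in place of 13. Of all genes then tested, 39.4%, 37.1% and 37.2% were called, in place of 50.1%. On the list of inflammasome genes 10 were tested, 6 were higher, 0 were lower and 4 did not pass, with a median of 1.62. Il1b (4.56), Il1a (4.16), Nlrp3 (2.48) and Casp4 (2.13) were higher, and Casp1 (0.12) and Il18 (-0.18) were not called. Whether the RNA of these genes depends on P2X7 was not tested.

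Cell type markers moved in the same libraries, and their part in the differences was not tested. Over all genes tested, 25.7% were called higher and 24.3% lower. Of 15 neutrophil markers 14 were higher and 0 lower, and their summed level before the log, over the 14 with 6 values, ranged from 20072 to 38212 in LPS, against 998.7 to 4571 in saline, with none at 0. Most of that sum was S100a8 (4.18), S100a9 (4.12) and Lcn2 (3.71), the last named in the genotype field and highest in LPS 3. Within LPS that sum was highest in LPS 1, as were Adora2a, Adora2b, Ada and P2ry2. It was lowest in LPS 2, as were Ada and P2ry2, whereas Adora2a and Adora2b were lowest in LPS 3. Of 16 monocyte and macrophage markers 12 were higher and 1 lower, with a summed level of 3021 to 3346 in LPS and 3687 to 5345 in saline. Most of that sum was Lyz2 (-1.0), the marker called lower, which alveolar type 2 cells also express, and without it the sum lay at 1030 to 1460 in LPS, against 199 to 400 in saline. The call of Lyz2 ended without LPS 1 (-0.92) or LPS 2 (-1.0). Of 14 alveolar macrophage markers 3 were higher and 6 lower, with sums of 1690 to 1778 in LPS and 975.8 to 1371 in saline. The 3 higher were Fabp5 (1.52), Cd9 (0.94) and Chil3 (0.55). The median difference of the list was -0.38, so the sum and most of the called markers moved in opposite directions. Of 8 platelet markers, which bear on the platelet receptor gene P2ry12, 3 were higher and 0 lower, with sums of 244.5 to 294.6 in LPS and 97.5 to 132.1 in saline.

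Several lists of lymphoid, vascular and stromal markers had lower levels in LPS, where 24.3% of all genes tested were called lower. Of 10 B cell markers 9 were lower and 0 higher, with sums of 50.3 to 82.1 in LPS and 245.7 to 387.2 in saline. Of 13 endothelial markers 5 were lower and 0 higher, with sums over the 9 with 6 values of 761.0 to 880.5 in LPS and 963.5 to 1057 in saline. Of 9 T cell markers tested 5 were lower and 0 higher, with sums over 10 markers of 50.4 to 59.0 in LPS and 67.3 to 100.2 in saline. The NK cell list did not fall: of 7 markers tested 0 were lower and 0 higher. Its sums over 8 markers overlapped, at 40.4 to 151.6 in LPS and 53.1 to 81.1 in saline. No marker of these cell types was at 0. Of 10 fibroblast markers 7 were lower and 0 higher, with sums over the 9 with 6 values of 483.7 to 633.8 in LPS and 1627 to 2549 in saline. Of the epithelial lists, 5 of 10 alveolar type 2 markers were lower and 1 higher, with sums over 9 of 14671 to 15812 in LPS and 18856 to 20229 in saline. Of 7 airway markers tested 2 were lower, Bpifa1 (-6.5) and Cyp2f2 (-1.32), and 2 higher, Ccdc113 (1.09) and Foxj1 (0.61). The sum over 8 airway markers lay between 150903 and 165920 in LPS, against 65061 to 102883 for saline. Most of that sum was the club cell gene Scgb1a1, which was not called (1.08, limma adjusted p = 0.102). Its difference was 0.28 when library totals were made equal, so the airway sum does not stand for the list. Markers of tissue other than lung also differed. All 8 cardiac muscle markers were lower, 7 without Pln, with sums over the 5 with 6 values of 30.8 to 120.9 in LPS and 185.8 to 1630 in saline. The summed level of 6 adipocyte markers lay at 1.2 to 12.1 in LPS, against 51.8 to 106.2 in saline, with Adipoq and Plin1 listed at 0 in LPS 2. Pln, Adipoq, Plin1, the B cell marker Cr2, the endothelial marker Aplnr and the alveolar macrophage marker Siglecf passed the filter through saline libraries alone, and the neutrophil marker Mrgpra2b through LPS libraries alone.

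The genes most like Adora2b and P2ry2 were taken as those with the smallest root mean square distance over the 6 libraries, after centring each gene on its mean, among 5280 genes with a difference in the same direction. For Adora2b they were Bhlhe40 (0.0584), a transcriptional repressor gene, Gm14005 (0.0791) and Plin2 (0.0964), which coats lipid droplets. For P2ry2 they were Dpep2 (0.0945), a peptidase gene, AB124611 (0.104) and Slc16a3 (0.119), a lactate transporter gene. These distances, on the log2 scale, are dominated by the step between the groups.

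The scaling between libraries bears on the smaller differences. When the unlogged values of each library were made to sum to one common total (equal sums), the median over all genes was -0.68 in place of 0.02, and Adora2b (1.0), P2ry2 (1.04), Ada (0.83), Adora2a (0.74), Entpd1 (-1.40) and P2rx7 (-1.38) kept their calls and directions. Adora1 (0.18, adjusted p = 0.459) and Adora3 (0.25, adjusted p = 0.283) did not pass, Nt5e turned to -0.35, and P2rx4 turned to -0.64 and was called lower (adjusted p = 0.00279), so 3 of the 10 genes were lower and 4 higher. The 3 P2Y genes P2ry6 (0.19), P2ry12 (0.21) and P2ry13 (0.49) also lost their calls with equal sums, as did Ampd3 (0.52) and Nt5c (0.34). With equal sums the median of the release and ectoenzyme list turned to -0.49 and that of the uptake and metabolism list to -0.60. The cyclic AMP list then had 1 gene higher and 15 lower, with a median of -0.95, and the inflammasome list 6 higher and 4 lower. Genes named above that kept direction and call included Alpl (1.05), Entpd3 (0.89), Bst1 (0.82), Nme1 (0.81), Pnp2 (1.08), Pnp (0.7) and Nr4a1 (1.25). On the lower side they included Dpp4 (-2.79), Adk (-1.74) and Slc29a1 (-2.01). Genes not called as deposited but then called lower included Entpd2 (-0.69, limma adjusted p = 0.00856). With quantile normalization, P2rx4 turned to -0.18 and the 8 calls among the 10 genes were kept.

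**Figure D5:**
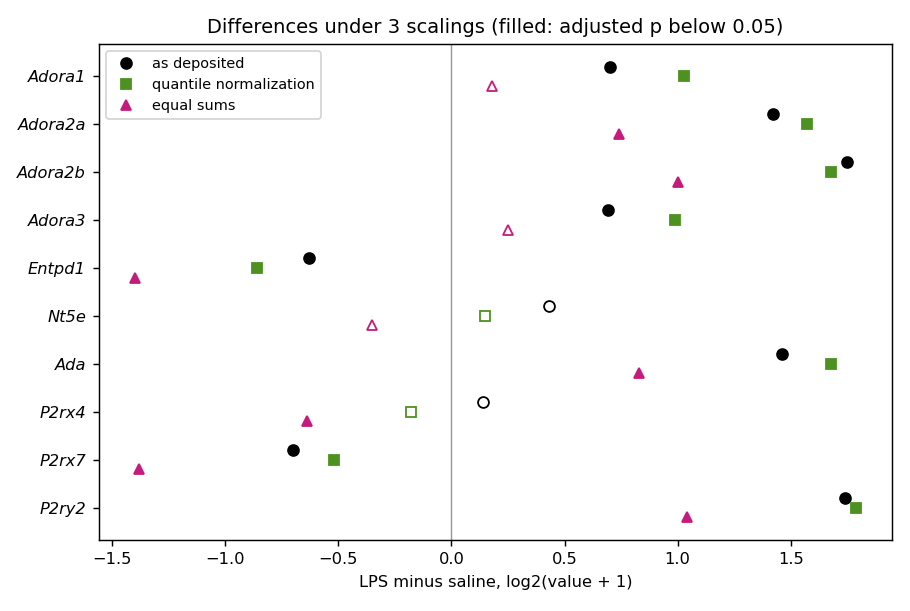
Difference of each of the 10 genes, LPS minus saline on the log2(value + 1) scale, as deposited (black circles), with quantile normalization (green squares) and with equal sums (magenta triangles). Filled marks have an adjusted p below 0.05. Adora2a, Adora2b, Ada and P2ry2 stay right of 0 and filled under all 3, Entpd1 and P2rx7 stay left and filled, and Nt5e and P2rx4 cross 0.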

How the data were processed

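RNA of lung tissue was sequenced in 6 libraries, 3 labelled LPS and 3 labelled saline, grouped by title. Per the labels' protocols, Trizol was used for extraction and a directional kit for the libraries. TopHat and the mm10 build are named in the submitters' processing notes. The sources used here do not say how reads were counted, whether strand was used, which annotation served or how libraries were scaled. The deposited values are log2(value + 1), a unit read from the values themselves, which start at exact zeros and are not whole. Exact zeros numbered 6097, 6223 and 5117 in LPS 1, LPS 2 and LPS 3, the last with the shorter table. Every saline library held the same number, 3869. Whether the tables of the groups were made alike at low values is not stated and was not tested. Differences of genes at or near exact zero may therefore not be differences in RNA. Whether they are scaled by gene length is not stated, so levels were not compared between genes.

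Genes with an unlogged value of at least 1 in 3 or more libraries entered 1 fit of the deposited values (limma 3.58.1 under R 4.3.3, variance trend), and p-values were adjusted over 13116 genes with the Benjamini-Hochberg method. The code was tested on simulated data. Fold changes on the log2(value + 1) scale understate the change of low genes. Named genes were the 10 members, the other P2X and P2Y genes tested, and in each pathway list the called genes if 4 or fewer, otherwise the 4 with the largest differences and 6 values. Promoters were to be shown for up to 4 called members with the largest differences. Adora2a had no entry, and the P2ry2 entry starts away from the gene model's end. The members and lists were chosen with earlier results of these data known. Coordinates are from GENCODE M21. List symbols Icer, Ly6g and Trac matched no gene and were not analysed here.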

Additional observations from a re-analysis of the deposited data

How the results depend on the processing

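Differences were recomputed with no filter, a mean of at least 5, log2(value + 0.1), quantile normalization, equal sums, limma without trend or with robust variances, the replicate block, each library left out, and saline 2 and LPS 3 left out together. Calls and directions of Adora2a (0.74 to 1.63), Adora2b (1.0 to 2.05), Ada, P2ry2 (1.04 to 1.93) and P2rx7 (-1.38 to -0.52) held under all 15. With a mean of at least 5, Adora1 and Adora3 were not tested, and Adora3 was not tested without saline 2 and LPS 3. The cause of each change below was not tested. With equal sums, Adora1 (0.18) and Adora3 (0.25) lost their calls, Nt5e (-0.35) and P2rx4 (-0.64, called lower) reversed, 798 genes were higher and 8343 lower, and 2 other P2X and 10 inflammasome genes (6 higher, 4 lower) were called. With quantile normalization P2rx4 reversed (-0.18) and 6 uptake and metabolism genes were called. With a mean of at least 5, 1752 genes were lower, and 0 other P2X and 8 cyclic AMP genes were called. With no filter, 0 other P2X genes and 1 other P2Y gene were called. Without saline 2 and LPS 3, Adora1 (0.69) lost its call and 0 other P2X genes were called.

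Leaving out 1 library at a time gave 5 to 9 of the 10 genes called, with 1 to 2 lower and 4 to 7 higher, while 37.1% to 52.8% of all genes tested were called. Differences ranged from 0.50 to 0.82 for Adora1, 0.53 to 0.85 for Adora3, -0.77 to -0.51 for Entpd1 and 0.35 to 0.59 for Nt5e, with 0 to 1 other P2X genes and 8 to 14 cyclic AMP genes called.

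Groups share replicate numbers. Deviations from the group mean of same-numbered libraries correlated at -0.234, -0.078 and -0.252 across 10295 genes, and those of other pairs at -0.013 to 0.217. With 3 libraries per group, these values cannot show whether same-numbered libraries were handled together. The main fit used no pairing. With the replicate block, 5417 genes were called against 6565, 1 of the 10 genes was called lower, Entpd1 (-0.63) had an adjusted p of 0.0518, and 0 other P2X genes were called. No ratio changed direction. Depth is unknown, so no detection limit can be given for genes at low values such as Adora1 and Adora3. The number of exact zeros also differed between the groups, and its part in the differences of such genes was not tested.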
